A study of Mus with 6 samples.

Results

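The RNAs described are the mouse miRNA loci with numbers of 1000 and above, read from the authors' deposited table of named non-coding RNAs. Members were all names that start with Mir followed directly by a number of 1000 or more, with host genes (names ending in hg) and the 4 loci Mir6408, Mir6400, Mir3107 and Mir6354 left out. This gave 142 loci of the 2282 names in the table. RNA came from the right substantia nigra pars compacta of the midbrain, whose dopaminergic neurons degenerate in Parkinson's disease. All mice overexpressed human α-synuclein with the A53T substitution, so the controls carried the transgene too. The 3 samples of the model group had received vehicle, 0.9% sterile saline, and the 3 samples of the AVE0991 group had received 10 mg/kg AVE0991. Both were given by intraperitoneal injection once a day for 30 days. AVE0991 is a small molecule that activates Mas, which is also the receptor for the peptide angiotensin-(1-7). The sources used here name neither the promoter of the transgene nor the age of the mice, and mice without the transgene were not analysed here.

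A miRNA gene is transcribed as a longer primary transcript in which the hairpin is cut out by Drosha and then trimmed by Dicer to the mature miRNA, which guides Argonaute proteins to target mRNAs. Many hairpins lie in introns of protein-coding genes and are transcribed with them. Names with high numbers were given later, as deep sequencing turned up less abundant hairpins, many of them limited to rodents, and among these are mirtrons, short introns that fold into a hairpin once they are spliced and so need no Drosha. The libraries here were made from total RNA, so a count at such a locus can come from the primary transcript, the hairpin or the RNA of the gene around it, and it does not measure the mature miRNA.

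The count table by identifier held 37036986 to 52029003 counts per sample. The table by name gives only group means and a test per name, and the whole counts behind it were recovered for all 142 loci. Counts could be recovered for 2239 names. Left out were 5 names with a group mean above 90000 and 3 for which several sets of counts fitted. The recovered counts came to 1605558 to 2178993 per library. The edgeR test used these recovered counts alone, so its changes are relative to the other recovered names and not to the full depth. Because the recovered counts carry no replicate number, the recovered libraries of a group are given the letters a, b and c, and values follow in that order. A normalized count is a recovered count divided by the factor of its library (0.921 to 1.18). The letters follow rising factor, so library a has the smallest factor of its group (0.921 with AVE0991, 1.08 in the model group). Separate animals are not named in the labels, and p-values therefore cover only differences among these samples, which may be technical. Without model library a, 420 named RNAs passed the edgeR test, against 297 with it, and in 10 of the 12 loci that passed it was the lowest library of its group. Of 24 cell type markers, those of dopaminergic neurons included, none is among the names, so the labelled tissue was not checked against them. Nor were any of 20 genes of miRNA processing and function, such as Drosha, Dgcr8, Dicer1 and Ago2, among the names.

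In RefSeq all 142 loci are hairpins of 52 to 139 bases (median 79). Of these, 105 overlap a protein-coding gene, 9 overlap another gene only, and 28 overlap none. RefSeq's table as used here has no strand, so a host and an antisense neighbour were not separated. Mean normalized counts over the 6 libraries ran from 0.672 for Mir7217 to 25484 for Mir3093, with a median of 185 against 143 for all recovered names. A mean of 1000 or more was reached by 28 loci. The sources used here do not give the length of the feature counted under each name, so these levels are counts per name and not per length. The filter on low counts kept 129 loci for testing. The other 13 had few counts or counts in single libraries: Mir6925 had 150 normalized counts in AVE0991 library a and 154 in model library a, against 3.58 to 6.05 in the other 4, and Mir7660 had 129 in AVE0991 library c and 209 in model library a, against 3.39 to 7.14 elsewhere.

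The question was which of these loci differ between AVE0991-treated and vehicle-treated mice of this genotype. Of the 129 tested loci, 12 fell with AVE0991, none rose and 117 did not pass (edgeR quasi-likelihood test, Benjamini-Hochberg adjusted p under 0.05 over all 1867 names tested). The share that fell, 9.30%, lies near the background of all names, of which 8.3% fell. Of all names 7.61% rose, and 15.9% passed in either direction, against 9.30% of the loci. At an unadjusted p under 0.05 the loci included 30 with a lower value and none with a higher one, where 15.1% of all names were lower and 15.9% higher. DESeq2 and limma-voom called 14 and 13 loci lower and none higher. Of all names with an adjusted p, DESeq2 called 8.45% lower and 9.94% higher, and limma-voom 8.68% and 9.21%. In a bulk sample, fewer cells that carry an RNA and less of it per cell cannot be told apart. The 12 loci that fell were Mir3081, Mir3075, Mir6995, Mir6386, Mir7021, Mir5104, Mir6909, Mir6937, Mir7004, Mir7093, Mir8095 and Mir6966. Each overlaps a protein-coding gene, and 6 of them fell by at least 2-fold.

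**Figure D1:**
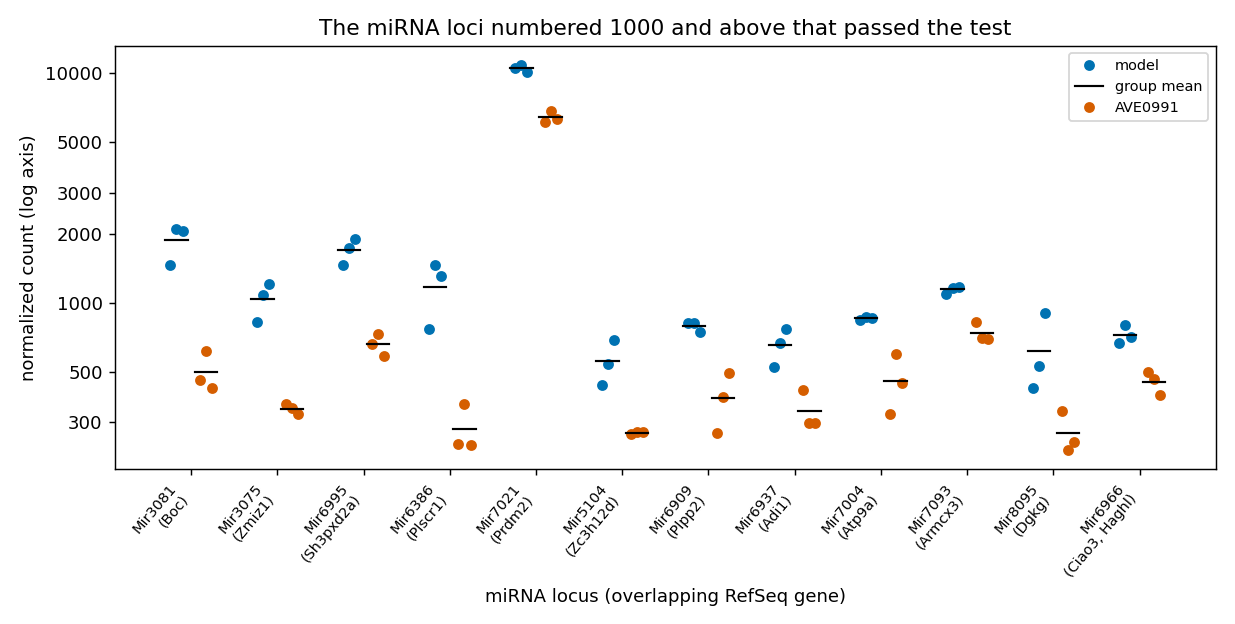
Normalized counts (log axis) of the 12 loci that passed the test, ordered by p, with the overlapping RefSeq gene in brackets; points are the libraries a, b and c of each group and bars the group means. In all 12 the highest AVE0991 library lies below the lowest model library. The 12 were picked by p from these same libraries, so this adds nothing to the test. The same held for 47 of the 117 loci that did not pass and for 22.5% of all names.

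The 4 loci with the smallest p were Mir3081, Mir3075, Mir6995 and Mir6386. Mir3081 overlaps Boc, a cell surface receptor of axon guidance and Hedgehog signalling. It had 459, 612 and 425 normalized counts with AVE0991 and 1466, 2091 and 2055 in the model group. The groups lie far apart, and the model group is at its lowest in library a. The log2 fold change was -1.86 ± 0.21 (SE; adjusted p = 0.00123, edgeR quasi-likelihood test), 3.62-fold lower with AVE0991.

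Mir3075 overlaps Zmiz1, a transcriptional coactivator. Its normalized counts were 359, 348 and 326 with AVE0991 and 821, 1082 and 1206 in the model group. The AVE0991 libraries lie close together and the model libraries spread more widely above them, again with library a lowest. The log2 fold change was -1.54 ± 0.19 (SE; adjusted p = 0.00190, edgeR).

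Mir6995 overlaps Sh3pxd2a, which encodes the podosome scaffold Tks5. It had 658, 733 and 583 normalized counts with AVE0991 and 1458, 1724 and 1900 in the model group, which do not overlap. The log2 fold change was -1.31 ± 0.17 (SE; adjusted p = 0.00222, edgeR). Mir6386 overlaps Plscr1, an interferon-inducible phospholipid scramblase, and had the largest fall of the 129 tested loci. Its counts were 242, 361 and 238 with AVE0991 and 769, 1453 and 1301 in the model group. Model library a was again the lowest of its group and still lay above all AVE0991 libraries. The log2 fold change was -2.02 ± 0.28 (SE; adjusted p = 0.00336, edgeR), 4.04-fold lower with AVE0991. These 4 loci kept their calls in all 14 alternative fits, 6 of which left out a library each.

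Mir7021 was the most abundant locus that fell. It overlaps Prdm2, which encodes a zinc finger protein of the PRDM family of histone methyltransferases. Its normalized counts were 6160, 6881 and 6314 with AVE0991 and 10568, 10867 and 10114 in the model group. Both groups are tight here, and model library a does not stand apart. The log2 fold change was -0.65 ± 0.12 (SE; adjusted p = 0.00914, edgeR). The call held without each library but was lost with the trend on gene span, described further on, taken out (log2 fold change -0.19, adjusted p = 0.340, edgeR).

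The other 7 loci that fell changed less or varied more, and each lost its call in 3 or more fits with a library left out. Mir5104 overlaps Zc3h12d, of the Regnase family of RNA-binding endonucleases. It had 267, 271 and 273 normalized counts with AVE0991 and 437, 541 and 685 in the model group, a log2 fold change of -0.99 ± 0.20 (SE). Mir6909 overlaps Plpp2, a phospholipid phosphatase. It had 269, 387 and 491 with AVE0991 and 815, 818 and 745 in the model group (log2 fold change -1.01 ± 0.21, SE). In Mir5104 the spread lies in the model group, and in Mir6909 it lies in the AVE0991 group. Mir6937 overlaps Adi1, an enzyme of the methionine salvage pathway, and had 415, 297 and 297 with AVE0991 and 522, 665 and 769 in the model group. Mir7004 overlaps Atp9a, a P4-type ATPase of endosomes, and had 325, 595 and 444 with AVE0991 and 841, 862 and 859 in the model group. Their log2 fold changes were -0.90 ± 0.23 and -0.86 ± 0.22 (SE).

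Mir7093 overlaps Armcx3, a protein of the mitochondrial outer membrane. Its normalized counts of 821, 701 and 694 with AVE0991 lay below 1089, 1162 and 1172 in the model group. Mir6966, which overlaps Ciao3 (cytosolic iron-sulfur protein assembly) and Haghl, had 497, 462 and 393 with AVE0991 and 665, 795 and 705 in the model group. These were the smallest of the 12 falls, with log2 fold changes of -0.57 ± 0.15 and -0.63 ± 0.17 (SE), followed by that of Mir7021. Mir8095 had the widest spread: 338, 228 and 247 with AVE0991 against 424, 527 and 898 in the model group, where library c is the highest (log2 fold change -1.14 ± 0.31, SE). The adjusted p of these 7 loci ran from 0.0155 for Mir5104 to 0.0430 for Mir6966 (edgeR). Without model library b or c, each of the 7 was lost. Without AVE0991 library b, all but Mir7004 were lost, and without library c all but Mir6909. Without AVE0991 library a, Mir5104, Mir6966, Mir7004 and Mir8095 were lost. With the trend on gene span taken out, none of the 7 passed: the log2 fold changes were then -0.56 for Mir5104, -0.53 for Mir6909, -0.43 for Mir6937, -0.40 for Mir7004, -0.17 for Mir7093, -0.75 for Mir8095 and -0.17 for Mir6966, with adjusted p from 0.0794 to 0.538 (edgeR).

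Mir8095 lies in Dgkg, which encodes diacylglycerol kinase gamma, and so does Mir6362. Dgkg is the only RefSeq gene that overlaps 2 of the 142 loci. Mir6362 had 174, 62.2 and 66.5 normalized counts with AVE0991 and 137, 134 and 193 in the model group. Its groups overlap through AVE0991 library a, and it did not pass (log2 fold change -0.56 ± 0.42, SE; adjusted p = 0.416, edgeR). Without AVE0991 library a, Mir6362 fell (log2 fold change -1.24, adjusted p = 0.0481, edgeR) and Mir8095 did not pass (-1.35, adjusted p = 0.0605, edgeR). In the other 5 fits with a library left out, Mir6362 did not pass. Whether the 2 loci differ in their change was not tested.

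Over the 6 libraries, the names most like Mir3081 in log2 CPM were D030025P21Rik, Airn, Gm2694, Mir6995 and Mir6386, with Pearson's r from 0.994 to 0.999. This is a description of 6 libraries that fall into 2 groups, so a fall with AVE0991 by itself raises r. The order of the libraries within each group also enters. All 5 names also fell in the test, with log2 fold changes from -4.03 for Gm2694 to -1.31 for Mir6995.

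**Figure D2:**
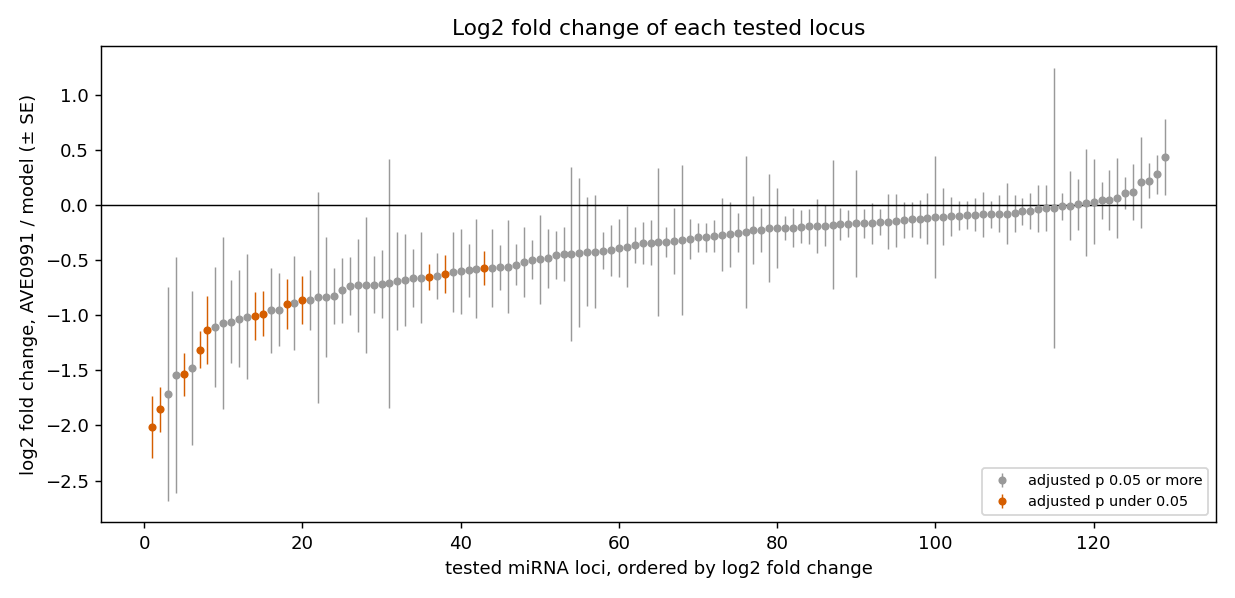
Log2 fold change of AVE0991 over model for each of the 129 tested loci, in rising order, with bars of 1 standard error; the 12 loci past the threshold are coloured. All 12 lie below 0, and 117 of the 129 values do.

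Beyond the loci that passed, most values lay below 0. The log2 fold changes of the 129 loci had a median of -0.34 (quartiles -0.68 and -0.13), against -0.02 over all 1867 names. Values below 0 were 90.7% of the loci and 51.4% of all names. In 59 of the 129 loci (45.7%) every AVE0991 library lay below every model library, against 22.5% of all names, and in none did every AVE0991 library lie above. With TMM-scaled CPM in place of the recovered factors, this was 43 loci (33.3%) against 19.3% of all names, with 1 locus above. The 142 loci together held 7.55% to 7.88% of the recovered counts in the AVE0991 libraries and 8.13% to 9.79% in the model libraries, where library a was the lowest.

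The direction of this shift depended on how gene span was treated. The hairpins are among the shortest names: of the 244 tested names with a span of up to 139 bases, 221 are miRNA loci in RefSeq. The other 23 had a median log2 fold change of -0.15, and names with a longer span had one of 0.05. When the trend of each library's log2 CPM on annotated span was taken out, the median of the loci was 0.12 against 0.02 over all names, and 42.6% of the loci had values below 0. Since most names of that span are miRNA loci, this step takes out much of what they share, and a shift of these loci and a shift of short names cannot be told apart here. In that fit 4 loci fell and 4 rose: 3.10% in each direction, against 7.38% lower and 6.09% higher over all names. Those that fell were Mir3081 (log2 fold change -1.42), Mir3075 (-1.10), Mir6995 (-0.86) and Mir6386 (-1.61). Those that rose there were Mir3108 (0.65), Mir5128 (0.55), Mir5616 (0.76) and Mir7646 (0.48), which without this step had log2 fold changes of 0.22, 0.11, 0.28 and -0.01 and did not pass.

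**Figure D3:**
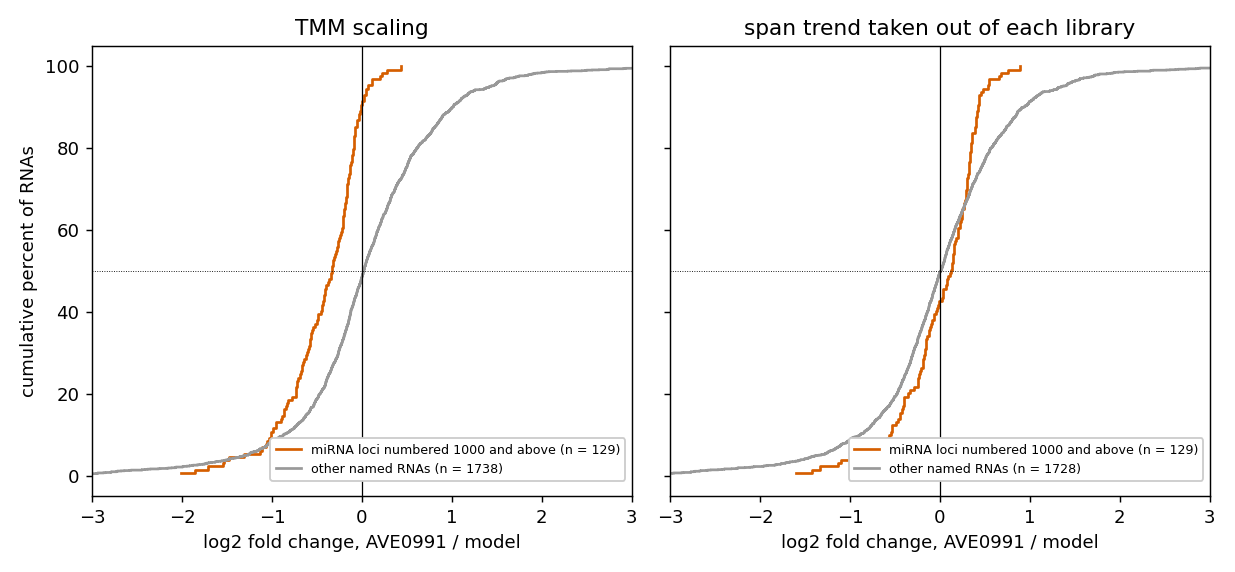
Cumulative percent of RNAs by log2 fold change of AVE0991 over model, for the 129 tested loci and for the other named RNAs, with TMM scaling (left) and with the trend on gene span taken out of each library (right); the axis is drawn from -3 to 3. The curve of the loci crosses 50% at -0.34 on the left and at 0.12 on the right.

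The most abundant loci showed smaller differences, except Mir7021. Mir3093, which overlaps the lncRNA gene Gm3764, had 21000, 24303 and 24331 normalized counts with AVE0991 and 25962, 27929 and 29379 in the model group. The groups do not overlap, but the log2 fold change of -0.21 ± 0.11 (SE) did not pass (adjusted p = 0.224, edgeR). Mir5130, which overlaps Kctd12, an auxiliary subunit of GABA-B receptors, had 13708, 13905 and 16156 with AVE0991 and 14488, 18438 and 17890 in the model group, which overlap. Its log2 fold change was -0.17 ± 0.13 (SE). The other abundant loci were Mir7670 in Ubn2, Mir6899 in the transcription factor gene Klf7, Mir6374 in Tet3 (an enzyme of DNA demethylation), Mir1902 in the kinase gene Hipk3, Mir6934 in Tbc1d16, Mir5116 in Mmgt1 and Mir5128 in Strbp. Their log2 fold changes ran from -0.33 ± 0.13 (SE) for Mir6934 to 0.11 ± 0.15 for Mir5128, and none passed. Of the 10 most abundant loci, only Mir5128 had a value above 0. With the span trend taken out, 8 of the 9 values below 0 turned positive, that of Mir7021 being the exception.

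**Figure D4:**
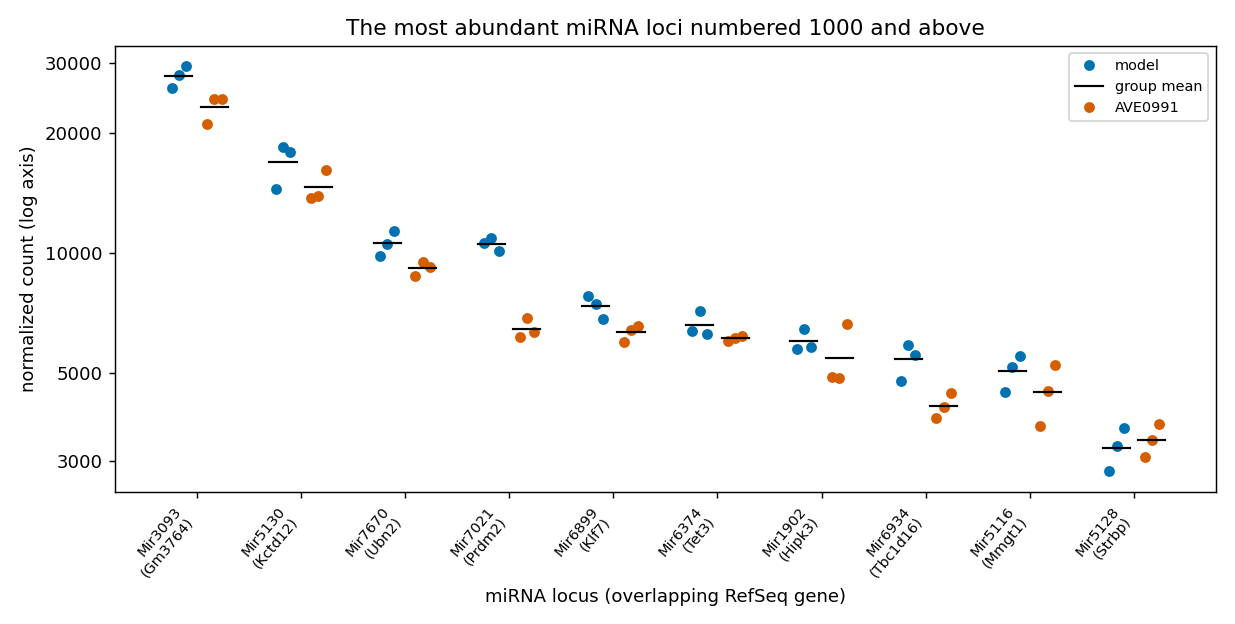
Normalized counts (log axis) of the 10 loci with the highest mean over the 6 libraries, with the overlapping RefSeq gene in brackets; points are the libraries of each group and bars the group means. The gap between groups is widest for Mir7021, while in Mir5130, Mir1902, Mir5116 and Mir5128 the groups overlap.

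Next to the threshold stood 5 loci that did not pass. Mir6339, which overlaps the transglutaminase gene Tgm3, had 78.2, 127 and 151 normalized counts with AVE0991 and 227, 218 and 204 in the model group (log2 fold change -0.82 ± 0.25, SE; adjusted p = 0.0624, edgeR). Mir7117 overlaps Ank, a gene of pyrophosphate transport, and had 69.5, 60.2 and 52.4 with AVE0991 and 108, 102 and 133 in the model group (log2 fold change -0.86 ± 0.27, SE). Neither overlapped between groups. Mir7013 in Pi4kb and Zfp687, Mir1192 in the transcription factor gene Klf9 and Mir7211 in Tmcc3 had log2 fold changes of -0.65, -0.54 and -0.95. Of Mir1192, the AVE0991 libraries had 2248, 1947 and 1921 normalized counts and the model libraries 2349, 3386 and 3494, so that model library a lay close to the AVE0991 group. Without that library Mir1192, Mir7013, Mir6934 and Mir1962 passed as well.

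By genomic context, the 99 tested loci that overlap a protein-coding gene held all 12 calls (12.1%, where 8.3% of all names fell). None of the 6 that overlap another gene only and none of the 24 that overlap no gene passed. At an unadjusted p under 0.05 (edgeR) 0 and 2 of them were lower, where 15.1% of all names were. Whether the groups differ in their share of calls was not tested. The medians of these groups, in that order, lay close together, at -0.32, -0.30 and -0.40. The loci outside genes were also less abundant, with a median of 65.8 normalized counts against 428 for those in protein-coding genes. Among the 43 least abundant tested loci (means of up to 97.2) none passed, with 5 lower at an unadjusted p under 0.05 (edgeR), among the next 43 (up to 593) 5 fell and among the 43 most abundant (601 to 25484) 7 fell, with medians of -0.49, -0.35 and -0.20. The part of abundance in the counts by context was not tested; Mir3093, the most abundant locus, overlaps a lncRNA gene only and did not pass. The locus outside genes with the smallest p was Mir6410, with 40.2, 33.7 and 33.3 normalized counts with AVE0991 and 70.2, 52.8 and 108 in the model group (adjusted p = 0.0914, edgeR).

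By number, 7 of the 12 calls lay among the 29 tested loci numbered from 6769 to 7117 (24.1%, where 8.3% of all names fell), with a median of -0.57. They were Mir6909, Mir6937, Mir6966, Mir6995, Mir7004, Mir7021 and Mir7093. All 29 loci of this band overlap a protein-coding gene, as do all 12 calls, so number and genomic context were not separated here. These number bands were drawn after the values were seen, and the difference between bands was not tested. Of the 17 loci numbered 1187 to 1962 and the 18 numbered 7211 to 7686 none passed, with 5 and 1 lower at an unadjusted p under 0.05 (edgeR; 15.1% of all names) and medians of -0.27 and -0.21. In the remaining bands, 2 of 19 loci numbered 3065 to 3970 (10.5%) and 1 of 16 numbered 5046 to 5616 (6.25%) fell. So did 1 of 22 numbered 6240 to 6516 (4.55%) and 1 of 8 numbered 8092 to 8120 (12.5%), against 8.3% of all names.

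Few hosts could be set beside their loci, because the named table holds mainly non-coding RNAs. Mir3970 overlaps Rnls, listed by RefSeq as a transcribed pseudogene, whose log2 fold change was 0.05 ± 0.17 (SE) against -0.27 for the locus; neither passed. Mir6516 overlaps Snhg20, which hosts a small nucleolar RNA, with a log2 fold change of -0.27 ± 0.15 (SE; adjusted p = 0.267, edgeR). Mir6516 itself had 0, 3.06 and 3.02 normalized counts with AVE0991 and 8.32, 13.4 and 6.79 in the model group and was below the filter.

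The spread within a group set some large differences apart from the calls. Mir6769b, which overlaps Unc13a, a gene of synaptic vesicle priming, had 6121 normalized counts in model library b and 1653 to 2316 in the other 5 libraries. Mir5136 had 94.3 and 107 in model libraries a and b and 1.70 in library c, against 9.77 to 44.9 with AVE0991. Their log2 fold changes of -0.68 ± 0.42 and -1.54 ± 1.07 (SE) did not pass. Mir3078, which overlaps the host gene of a copy of the neuronal miR-124, had 59.7, 15.3 and 4.03 with AVE0991 and 63.8, 43.0 and 67.0 in the model group.

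The low-numbered miRNA loci and let-7 showed the same side of 0. Of 88 tested, 19 fell (21.6%) and 1 rose (1.14%), where 8.3% of all names fell and 7.61% rose. Their median log2 fold change was -0.39, with 83.0% of values below 0. With the span trend taken out, 2 fell and 3 rose, with a median of 0.05. The share that passed was 22.7% against 9.30% for the high-numbered loci, a difference that was not tested; the low-numbered loci were also more abundant (median 579 against 251 normalized counts). The authors' deposited table, which tests each name from its 6 values alone, gave an unadjusted p under 0.05 for 31 of the 142 loci, all lower with AVE0991, against 10.6% of 2247 names lower and 8.19% higher. In the authors' deposited table the smallest p among the loci was 0.000195, for Mir7021. Mir8095 and Mir5104, which fell in the edgeR test, had p = 0.132 and 0.0583 in the authors' deposited table. After Benjamini-Hochberg adjustment over all names, none of the authors' p-values for the loci passed (smallest adjusted value 0.132).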

How the data were processed

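Total RNA of 3 model and 3 AVE0991 samples was sequenced. Per the labels' protocols, FastQC 0.11.8 and fastp 0.19.5 served for read quality and trimming. The submitters' processing notes name build mm9, STAR 2.7.7a and DESeq2 1.10.1. How reads were counted, and on which annotation and strand, was not stated in the sources used here. What the authors deposited was whole-number counts per identifier, used here for depth only, and a table by name. Per the file headers, that table gives a mean signal per group (which the recovery below showed to be counts divided by library factors), a statistic with its degrees of freedom, a p-value and a log2 fold change, which equals the log2 ratio of means plus 1.

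Each mean, with the variance implied by the statistic, was solved for whole counts; 2239 of 2247 names (99.64%) had 1 solution (relative tolerance 1e-09), and 8 names had several or lay above the level solved. The main test was edgeR 4.0.16 (quasi-likelihood, TMM, filterByExpr; R 4.3.3) on these counts over all names. A standard error is the size of the log2 fold change over the square root of F. Both steps were tested on simulated data. Of 2234 simulated names, 2228 had 1 solution, and all 2228 equalled the simulated counts. Of 99 names changed by a log2 fold change of 1, the edgeR test called 32.3%, and of 99 changed by 2, 97.0%. A locus that did not pass is therefore not shown to be unchanged. Of the simulated calls, 2.29% were names left unchanged. That simulation used the same dispersion for all names. Alternatives used DESeq2 1.42.0, limma 3.58.1 (voom), other scalings and filters, a robust fit, the span trend and each library left out. All 142 loci matched RefSeq symbols (GRCm38.p6), used for span and overlap; coordinates are not given because the builds differ. No miRNA sequences were used here, so loci were not grouped by seed. Named loci were those called, the 10 most abundant and the 5 with the smallest p not called. Mir1264, Mir1298, Mir1912 and Mir1224 were looked for but are not among the names. Other loci were named after their values were seen. The members and lists were chosen with earlier results of these data known.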

Additional observations from a re-analysis of the deposited data

How the results depend on the processing

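The number of loci called, 12, was 11 to 14 with other scalings, filters, a robust fit, DESeq2 and limma-voom, all lower; 11 or 12 of the 12 were shared in each. With the span trend taken out it was 8 (4 higher, 4 lower; 4 shared), with a 2-fold minimum 6, and with the authors' adjusted p 0. Leaving out a library gave 5 to 16, all lower; the count was 7 and 6 without AVE0991 library b or c and 5 without model library b or c. The median of the loci stayed between -0.42 and -0.30 in the other fits and was 0.12 with the span trend taken out. The same step turned Mir3093 (0.22), Mir5130 (0.27), Mir7670 (0.30), Mir6899 (0.30), Mir6374 (0.34), Mir1902 (0.35), Mir6934 (0.14) and Mir5116 (0.35). It left 5 low-numbered loci called (3 higher, 2 lower), against 20. All named RNAs called, 297, were 184 with a 2-fold minimum, 0 with the authors' adjusted p and 93 to 420 with a library left out; low-numbered loci were 7, 0 and 3 to 24. Of the 12 loci, 4 kept their call in all 14 fits and none changed sign. Fewer libraries enter the fits with one left out, and the other causes were not tested. The 12 loci had means of 412 normalized counts or more; a limit set by depth on the calls below that level was not tested.

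No paired analysis was possible because the recovered libraries carry no replicate number. The TMM count of loci whose groups do not overlap was added after seeing the data.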
